A study of Mus musculus with 7 samples.

Results

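The 10 genes described here, Thy1, Nt5e, Eng, Cd44, Alcam, Ly6a, Vcam1, Pdgfra, Cd34 and Anpep, encode surface proteins used to recognise mesenchymal stromal cells. They were found on the arrays by gene name, which gave 15 probes of 55670 for 10 of 34792 gene names. Cardiac mesenchymal progenitors (CMPs) of adult C57BL/6 mice were grown on collagen I in DMEM/F12 supplemented with basic fibroblast growth factor at 40 ng/ml and fetal bovine serum at 10%. One culture each came from atrial and from ventricular tissue of living mice, and one each from atrial and from ventricular tissue kept for 24 h at 4 °C after death, so each of the 4 sources is 1 array. Heart RNA served as positive control in the study's design: purchased adult heart RNA (Clontech, strain not in the labels, 1 array) and fetal heart at embryonic day 16.5 on a C57BL/6 background. The fetal hearts were 1 wild-type array and 1 array of the line C57BL/6-Tg(Myh6-EGFP)MG2, in which the cardiomyocyte promoter of Myh6 drives a fluorescent protein. Each array received 250 ng of Cy3-labelled RNA.

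Mesenchymal stromal cells are adherent, spindle-shaped cells that support other cells of a tissue and can form bone, fat or cartilage cells in culture. No single protein defines them. They are recognised by a panel, classically THY1 (CD90), NT5E (CD73) and ENG (CD105) together with the lack of blood and endothelial markers, and in mice the glycoprotein SCA-1, the product of Ly6a, and the receptor PDGFRA are also used. In the adult heart the same proteins occur on interstitial fibroblasts, pericytes and, for some, endothelial cells, so in whole-heart RNA fewer cells of a type and less RNA per cell cannot be told apart.

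Signals are given on a log2 scale relative to the 75th percentile of the same array, so 0 is the level of the 75th percentile and 1 unit is a 2-fold difference. Each gene is represented by its probe of highest mean. Because probes bind with unequal strength, values are compared between arrays for 1 gene and never between genes. Within a group the CMP arrays differ by chamber and the fetal arrays by genotype, and no label names separate animals or repeated cultures. The p-values below do not measure the whole spread between these 7 samples, and part of what they measure may be technical. Differences between chambers and between postmortem and living CMPs are fitted, so they stay out of the error. What remains of a gene's own spread is the gap between the fetal arrays and any inequality of the postmortem difference between chambers. Adult heart, a single array, adds nothing to the error. The p-values come from limma, a linear model fitted to all 7 arrays at once. It draws the error of each gene toward a trend over all genes of like signal. In the group comparisons that trend counts for 3.5 to 3.6 degrees of freedom, against 2 of the gene's own. Errors and intervals are therefore not a gene's own spread alone. Adjustment is Benjamini-Hochberg over all genes tested, with a threshold of 0.05. Errors given with a difference are standard errors of that fit, and intervals are 95% confidence intervals.

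The probes are 60 bases long. The probes shown, which lie wholly or in part in coding sequence, are that of Alcam, the marker most spread among the CMPs, and those of Cd44, Vcam1 and Cd34, genes read by more than 1 probe. They are given 5′ to 3′ as deposited, with positions on mouse build mm9. Alcam was read by 1 probe that crosses a splice junction: its 60 bases span chr16:52268908-52270785 on the minus strand. Cd44 had 4 probes on the minus strand of chromosome 2, and the 3 shown begin at bases 1777, 1965 and 2614 of the transcript. They lie at chr2:102677971-102678030, chr2:102672645-102672704 and chr2:102654278-102654337. The third is shown as far as its stop codon, in capitals. The fourth Cd44 probe, which has the highest mean, begins at base 5494 (chr2:102651398-102651457). Vcam1 is shown by its probe at base 842 (chr3:115828953-115829012, minus strand), beside one at base 3060 with the higher mean (chr3:115813216-115813275). Cd34 is shown by its probe at base 963 (chr1:196785280-196785339, plus strand), beside one at base 2370 with the higher mean (chr1:196787392-196787451).
Alcam: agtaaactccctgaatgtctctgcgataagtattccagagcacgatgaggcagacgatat
Cd44 base 1777: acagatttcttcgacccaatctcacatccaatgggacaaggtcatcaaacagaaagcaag
Cd44 base 1965: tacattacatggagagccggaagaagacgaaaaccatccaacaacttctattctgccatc
Cd44 base 2614: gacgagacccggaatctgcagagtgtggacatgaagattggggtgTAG
Vcam1 base 842: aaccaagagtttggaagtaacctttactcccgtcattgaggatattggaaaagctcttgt
Cd34 base 963: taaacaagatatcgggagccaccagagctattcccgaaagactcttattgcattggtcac

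The other 6 genes had 1 probe each: Thy1 at chr9:43856591-43856650, Nt5e at chr9:88266616-88266675, Eng at chr2:32537268-32537327 and Pdgfra at chr5:75593888-75593947 on the plus strand, and Ly6a at chr15:74825553-74825612 and Anpep at chr7:86966716-86966775 on the minus strand. The Ly6a probe was compared with the probes of the other Ly6-family genes, which are close relatives. Its longest run of bases shared with any of them was 8, with Cd59b, and 6 with either probe of Ly6c1. The comparison covered probe sequences and not the relatives' transcripts, so it cannot show whether the Ly6a probe also binds their RNA.

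All 10 genes were well above background on all 7 arrays, as were 13 of their 15 probes. Of all gene names, 16030 of 34792 were. The share of probes above background on an array was 46.5% to 52.5%. The panel of markers that mesenchymal cells should lack was only in part low in the CMPs. Of its 10 genes, which include Cd34, 7 were well above background on 3 CMP arrays and 8 on the living ventricular one, against 9 in adult heart and 8 in each fetal heart. The class II gene H2-Aa was not well above background on any CMP array, and the pan-leukocyte gene Ptprc only on the living ventricular one. Itgam, the integrin chain of myeloid cells, stood at 5.44 to 6.01 on the CMP arrays, 5.44 in adult heart and 2.94 and 3.81 in the fetal hearts. Its part in the results below was not tested.

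Markers of other cell types gave the following picture of the cultures. The summed level of 10 fibroblast markers lay between 11.45 and 11.68 on the CMP arrays, against 9.42 in adult and 9.71 and 9.76 in fetal hearts. That of 10 endothelial markers lay between 3.68 and 5.39, against 7.63 in adult and 6.68 and 6.70 in fetal hearts. Of 12 cardiomyocyte markers, 1 to 5 were well above background on a CMP array and all 12 in each heart, and Actc1 was not well above background on any CMP array. The troponin gene Tnnt2 was the one of the 12 well above background on all 4 CMP arrays, at 4.02, 2.73 and 4.10 on the postmortem atrial, postmortem ventricular and living atrial arrays and 0.11 on the living ventricular one.

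**Figure D1:**
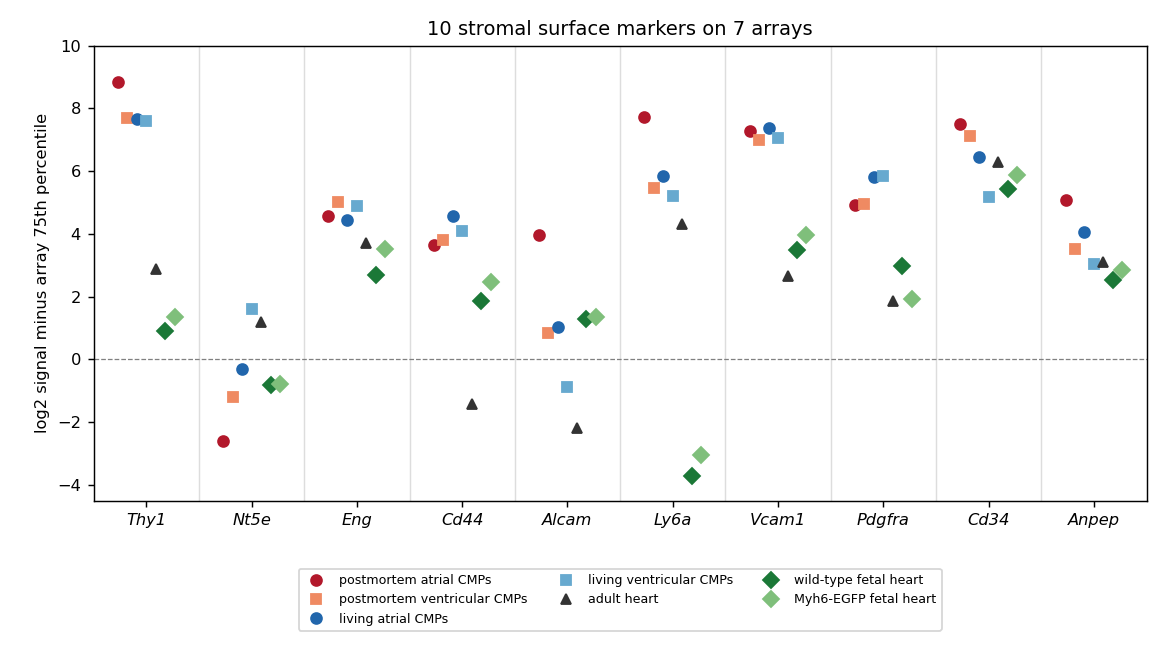
Level of each of the 10 marker genes on each of the 7 arrays, as log2 signal minus the array's 75th percentile; each point is 1 array and the dashed line is the 75th percentile itself. The 4 CMP arrays lie above all 3 heart arrays for Thy1, Eng, Cd44, Ly6a, Vcam1 and Pdgfra, and Nt5e and Alcam are the genes most spread among the CMPs.

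Against fetal heart, 8 of the 10 markers were higher in the CMPs and none was lower, in a comparison in which limma called 48% of 20052 genes, 22.8% of them higher and 25.2% lower. The median difference of the 10 was 1.75, against -0.01 over all genes tested. Against adult heart, 8 were higher and 1, Nt5e, was lower, where 49.3% of 20278 genes were called, 24.6% in each direction. Here the median of the 10 was 2.58 and that of all genes 0.00. The arrays of both sides did not overlap for 7 markers in each comparison, all higher in the CMPs, as for 30.2% of genes against fetal and 40.7% against adult heart. Both comparisons use the same 4 CMP arrays, and adult heart is a single array whose spread is taken from the others.

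Thy1 encodes a small GPI-anchored protein of fibroblasts, stromal cells and T cells that binds integrins. It stood at 8.83 on the postmortem atrial array, 7.69 on the postmortem ventricular, 7.66 on the living atrial and 7.61 on the living ventricular array. Adult heart was at 2.87, wild-type fetal heart at 0.90 and Myh6-EGFP fetal heart at 1.34. The CMPs were thus far above every heart and did not overlap with them, by 6.83 ± 0.27 or 113-fold against fetal heart (adjusted p = 0.000108) and by 5.08 ± 0.34 or 33.8-fold against adult heart (adjusted p = 0.000494). The postmortem atrial array lay 1.13 above the next CMP array, while the other 3 were within 0.09 of each other. Of 6 integrin and syndecan partners of THY1, 4 were higher than in fetal heart and none lower, with a median of 1.71, and against adult heart 3 were higher and 1 lower. The syndecan gene Sdc4 was higher by 3.59 ± 0.19 against fetal heart (adjusted p = 0.000201), and Itgav, the alpha-v chain, by 2.48 ± 0.23 against fetal and 4.04 ± 0.29 against adult heart (adjusted p = 0.000804 and 0.000581).

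Nt5e encodes the ecto-enzyme that turns AMP into adenosine outside the cell. It stood at -2.60 on the postmortem atrial array, -1.21 on the postmortem ventricular, -0.31 on the living atrial and 1.61 on the living ventricular array, with 1.18 in adult heart and -0.81 and -0.80 in the fetal hearts. The CMP arrays were spread over an 18.5-fold range that covered all the hearts. Their mean of -0.63 ± 1.76 (SD, n = 4) did not differ detectably from fetal heart (0.18 ± 0.23, interval -0.40 to 0.75, adjusted p = 0.575). It lay 1.81 ± 0.30 below adult heart, or 3.50-fold (adjusted p = 0.00552), although the living ventricular array was above it. Without the chamber term in the model, which puts the spread between chambers into the error, this call against adult heart was lost (adjusted p = 0.116). Postmortem and living CMPs kept separate means in that fit, so the difference between them stayed out of the error.

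Eng encodes endoglin, a co-receptor for BMP9 and other TGF-beta family ligands that is most abundant on endothelial cells. It was at 4.57, 5.03, 4.44 and 4.88 in the CMPs, in the order used for Thy1 and Nt5e. Adult heart was at 3.70 and the fetal hearts at 2.68 and 3.51. The CMPs agreed to within 1.5-fold and lay above all hearts, by 1.64 ± 0.25 or 3.11-fold against fetal heart (adjusted p = 0.00421) and by 1.03 ± 0.33 or 2.05-fold against adult heart (adjusted p = 0.0454). The second call is close to the threshold and was lost in 5 of its alternatives, with adjusted p-values from 0.0501 to 0.0903. Of the endoglin pathway, 7 of 16 genes were higher and 2 lower against fetal heart, and 10 of 14 higher and none lower against adult heart. Scaled by the median of detected probes these were 6 and 4, and 6 and none, and with normexp correction 7 and none against fetal heart. Acvrl1, the type I receptor that acts with endoglin, was higher by 3.76 ± 0.30 against fetal and 1.99 ± 0.38 against adult heart (adjusted p = 0.000521 and 0.00892). The target gene Id3 was higher by 2.63 ± 0.21 and 3.31 ± 0.27 in the same order (adjusted p = 0.000564 and 0.000761).

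Beside Eng, none of 10 endothelial markers was higher in the CMPs: 8 were lower against fetal heart, with a median of -3.25, and 6 against adult heart, with a median of -3.51. Pecam1 was at -2.73, -1.61, -1.29 and -2.14 in the CMPs against 0.75 in adult and 0.13 and 0.02 in fetal heart.

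Cd44 encodes the main receptor for hyaluronan, a long matrix sugar, and its transcript can include a set of variable exons. By its probe at base 5494 it was at 3.63, 3.81, 4.56 and 4.09 in the CMPs, in the same order, at -1.43 in adult heart and at 1.86 and 2.45 in the fetal hearts. All 4 CMP arrays were above the hearts, by 1.87 ± 0.24 or 3.65-fold against fetal heart (adjusted p = 0.00226) and by 5.46 ± 0.31 or 43.9-fold against adult heart (adjusted p = 0.000345). The adult-heart difference was 4.77 with normexp correction and 2.44 with the mean of the gene's probes. That mean includes the probes at bases 1777 and 1965, which were not well above background in adult heart. Adult heart was the lowest array, 3.59 ± 0.34 or 12.0-fold below fetal heart (adjusted p = 0.00198).

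The probe at the end of the Cd44 coding sequence gave a different order of the hearts. It stood at 2.02, 2.54, 2.86 and 2.75 in the CMPs, -0.50 in adult heart and -0.75 and 0.17 in the fetal hearts. The CMPs were above both kinds of heart here too, by 2.83 ± 0.31 and 3.05 ± 0.40 against fetal and adult heart (adjusted p = 0.00108 and 0.00213 over all probes). Adult heart, however, lay between the fetal arrays, with a difference of -0.21 ± 0.43 (adjusted p = 0.72). With the mean of the gene's probes the adult-fetal difference was -0.70 and no longer called (adjusted p = 0.367). That mean also takes in the probes at bases 1777 and 1965, which were not well above background in any heart. The difference between the probes was not tested. The probes at bases 1777 and 1965 were near or below background: the first was well above it on the postmortem ventricular (-3.68) and living atrial (-3.54) arrays only, and the second on none. The exons in which they lie are not given in the sources used here.

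Of the hyaluronan and CD44 list, 5 of 15 genes were higher and 7 lower against fetal heart, and 7 higher and 4 lower against adult heart. The hyaluronan synthase gene Has2 was spread widely among the CMPs, at -2.90, 1.36, 1.38 and 2.30 in the order above. It was 3.21 ± 0.90 above adult heart (adjusted p = 0.0307), and its difference from fetal heart was 0.61 ± 0.69 (adjusted p = 0.515). Spp1, whose product osteopontin is a ligand of CD44 and which was well above background in 1 of 2 fetal hearts, was higher by 6.38 ± 0.78 against fetal and 3.42 ± 1.00 against adult heart (adjusted p = 0.00188 and 0.0354). Mmp14, a membrane protease that can cut CD44, was higher by 4.57 ± 0.28 against adult heart (adjusted p = 0.000382).

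**Figure D2:**
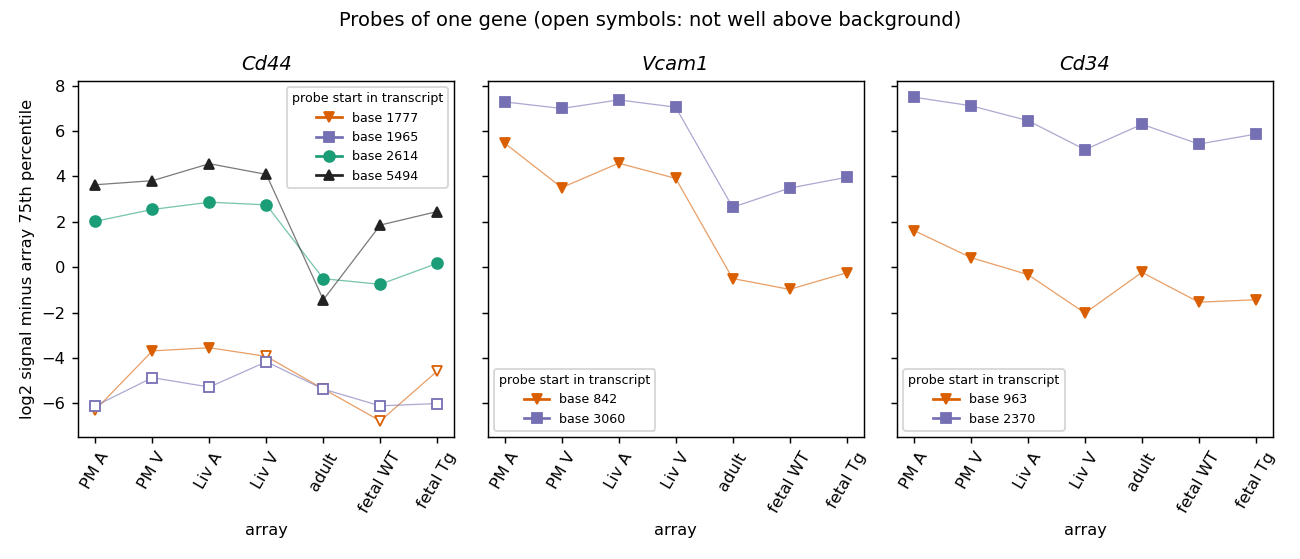
Level of every probe of Cd44, Vcam1 and Cd34 on the 7 arrays (PM, postmortem; Liv, living; A, atrial; V, ventricular; WT, wild type; Tg, Myh6-EGFP), as log2 signal minus the array's 75th percentile, with lines joining the arrays of 1 probe and open symbols where it was not well above background. Adult heart is the lowest array by the Cd44 probe at base 5494 and lies between the fetal hearts by the one at base 2614, while both Cd34 probes are highest on the postmortem atrial and, among the CMPs, lowest on the living ventricular array.

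Vcam1 encodes an adhesion molecule that holds leukocytes through the integrin VLA-4, made of ITGA4 and ITGB1. It was the steadiest of the 10 among the CMPs, at 7.28, 6.99, 7.37 and 7.05, a range of 1.30-fold, with 2.64 in adult heart and 3.48 and 3.96 in the fetal hearts. All CMP arrays were above all hearts, by 3.45 ± 0.18 or 10.9-fold against fetal heart (adjusted p = 0.0002) and by 4.53 ± 0.24 or 23.1-fold against adult heart (adjusted p = 0.000313). The probe at base 842 was less steady, at 5.46, 3.51, 4.58 and 3.91 in the CMPs, -0.50 in adult heart and -0.98 and -0.25 in the fetal hearts. It too set the CMPs above fetal and adult heart, by 4.97 ± 0.33 and 4.86 ± 0.43 (adjusted p = 0.000248 and 0.000662). Among the 10 tested adhesion partners, 3 were higher and 4 lower against fetal heart, and 3 higher and 5 lower of 9 against adult heart. Icam1, another leukocyte adhesion molecule, was higher by 3.74 ± 0.21 and 2.97 ± 0.28 (adjusted p = 0.000235 and 0.000987), and Itgb1 by 1.19 ± 0.21 and 2.87 ± 0.27 (adjusted p = 0.0066 and 0.00101), while Icam2 was lower by 3.92 ± 0.67 against fetal heart (adjusted p = 0.00588). Selp, at least 93.6-fold higher than in fetal and 49.7-fold higher than in adult heart (adjusted p = 0.000191 and 0.00101), was not well above background in the hearts, so these are lower bounds.

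Alcam encodes CD166, an adhesion molecule of stromal and epithelial cells that binds CD6 and itself. It was the marker most spread among the CMPs, at 3.97 on the postmortem atrial, 0.84 on the postmortem ventricular, 1.04 on the living atrial and -0.89 on the living ventricular array, a range of 29.2-fold. Adult heart was at -2.18 and the fetal hearts at 1.30 and 1.35. The fetal hearts lay inside the range of the CMPs, with a difference of -0.09 ± 0.28 (interval -0.79 to 0.62, adjusted p = 0.829), whose sign turned with normexp background correction (0.026). Adult heart was below all 4 CMP arrays, by 3.42 ± 0.36 (adjusted p = 0.00138) or by 2.52 with normexp correction. This call was lost without the chamber term (adjusted p = 0.0627). Among 6 tested relatives and partners, 1 was higher and 3 lower against fetal heart and 2 were higher and 2 lower against adult heart. Mcam, its close relative CD146, was lower by 1.45 ± 0.16 against fetal heart (adjusted p = 0.0013).

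Pdgfra encodes the alpha receptor for platelet-derived growth factors, a marker of fibroblasts and their progenitors in the heart. It was measured on 10 spots per array, whose SD within an array was 0.0757 to 0.105. The postmortem CMPs were at 4.92 (atrial) and 4.94 (ventricular) and the living CMPs at 5.80 and 5.84, with 1.86 in adult heart and 2.96 and 1.94 in the fetal hearts. All CMP arrays were above all hearts, by 2.92 ± 0.30 or 7.59-fold against fetal heart (adjusted p = 0.00111) and by 3.51 ± 0.39 or 11.4-fold against adult heart (adjusted p = 0.00153). The wild-type fetal heart was 1.03 above the Myh6-EGFP one, the widest gap of the 10 markers between the fetal arrays.

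In the PDGF pathway 4 of 7 genes were higher and 1 lower against fetal heart, and 3 higher and 1 lower against adult heart. The beta receptor Pdgfrb was higher by 2.95 ± 0.23 and 2.70 ± 0.30 (adjusted p = 0.000515 and 0.00154) and the ligand gene Pdgfd by 3.55 ± 0.24 and 2.58 ± 0.31 (adjusted p = 0.000343 and 0.00193). Pdgfb, the ligand made chiefly by endothelial cells and platelets, was lower by 2.39 ± 0.49 and 3.43 ± 0.63 (adjusted p = 0.011 and 0.00765). Pdgfa, the main ligand of the alpha receptor, had differences of 0.04 ± 0.19 and 0.22 ± 0.24 (adjusted p = 0.88 and 0.491).

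Ly6a encodes SCA-1, a GPI-anchored protein of mouse stem and stromal cells and of blood vessels. It stood at 7.72 on the postmortem atrial, 5.47 on the postmortem ventricular, 5.83 on the living atrial and 5.19 on the living ventricular array. Adult heart was at 4.31 and the fetal hearts at -3.73 and -3.04. Against fetal heart this was the largest difference of the 10, 9.44 ± 0.37 or 694-fold (adjusted p = 0.000108). The fetal signals were close to the lowest signals well above background on their arrays (-4.61 and -4.04), and the lowest difference, 7.68, came with normexp background correction. Against adult heart the difference was 1.75 ± 0.48 or 3.36-fold (adjusted p = 0.0289). Leaving out either the wild-type or the Myh6-EGFP fetal array left that value unchanged but lost the call. The call was also lost without the chamber term (adjusted p = 0.126).

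The Ly6 relatives fell on both sides. Against fetal heart 7 of 18 were higher and 7 lower, and against adult heart 5 of 14 were higher and 4 lower. Normexp background correction gave 7 higher and 3 lower, and 4 and 4. Ly6c1, a marker of endothelial cells and monocytes, stood at 8.85, 6.53, 6.97 and 6.33 in the CMPs, 6.72 in adult heart and -0.95 and -1.01 in the fetal hearts. Its difference was 8.15 ± 0.33 against fetal heart (adjusted p = 0.000114) and 0.45 ± 0.43 against adult heart (adjusted p = 0.425). Gpihbp1, which carries lipoprotein lipase on capillary endothelium, was lower than in adult heart by 6.83 ± 0.29 (adjusted p = 0.000223). Ly6k was at least 105-fold higher and Ly6h at least 94.9-fold lower than in fetal heart (adjusted p = 0.000123 and 0.000436).

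Cd34 encodes a sialomucin of blood progenitors, vascular endothelium and, in mice, many stromal cells. It stood at 7.49 on the postmortem atrial, 7.11 on the postmortem ventricular, 6.45 on the living atrial and 5.18 on the living ventricular array. Adult heart was at 6.29 and the fetal hearts at 5.42 and 5.86. The living ventricular array was below every heart and the other 3 CMP arrays were above all of them. The CMPs were higher than fetal heart by 0.91 ± 0.25 or 1.88-fold (adjusted p = 0.0278). The call was lost in 6 alternatives, among them leaving out the postmortem ventricular array (0.69, adjusted p = 0.0792), the living atrial array (0.69, adjusted p = 0.0829) or the wild-type fetal heart (0.70, adjusted p = 0.137). Against adult heart the difference was 0.26 ± 0.32 (interval -0.53 to 1.05, adjusted p = 0.52). Its sister gene Podxl was different by -3.05 ± 0.37 from fetal heart and by -4.40 ± 0.47 from adult heart, lower in the CMPs both times and well above background on 2 of 4 CMP arrays (adjusted p = 0.00181 and 0.00145). Podxl was one of 2 genes of the short CD34 list called against adult heart, both lower, out of 5, and the single one of 4 against fetal heart.

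Anpep encodes aminopeptidase N (CD13), an enzyme that trims peptides at the surface of stromal and myeloid cells. It was at 5.08, 3.52, 4.05 and 3.04 in the CMPs, in the order used throughout, 3.1 in adult heart and 2.52 and 2.85 in the fetal hearts. The CMPs were above both fetal hearts, by 1.24 ± 0.19 or 2.36-fold (adjusted p = 0.00409), a call lost without the chamber term (adjusted p = 0.0891). They were above adult heart by 0.83 ± 0.25 or 1.77-fold (adjusted p = 0.0376), although the living ventricular array was just below it, and this call was lost without the postmortem atrial array (0.69, adjusted p = 0.0725) and without the living ventricular array (0.69, adjusted p = 0.0743). It was also lost without the chamber term (adjusted p = 0.325). Of 10 other surface peptidases, 3 were higher and 3 lower against fetal heart, and 1 higher and 4 lower against adult heart. Ace, the angiotensin-converting enzyme, was higher by 5.66 ± 0.33 and 1.99 ± 0.42 (adjusted p = 0.000242 and 0.0127). Dpp4 (CD26), not well above background in any CMP array, was at least 31.9-fold lower than in fetal and 6.06-fold lower than in adult heart (adjusted p = 0.000519 and 0.00486).

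**Figure D3:**
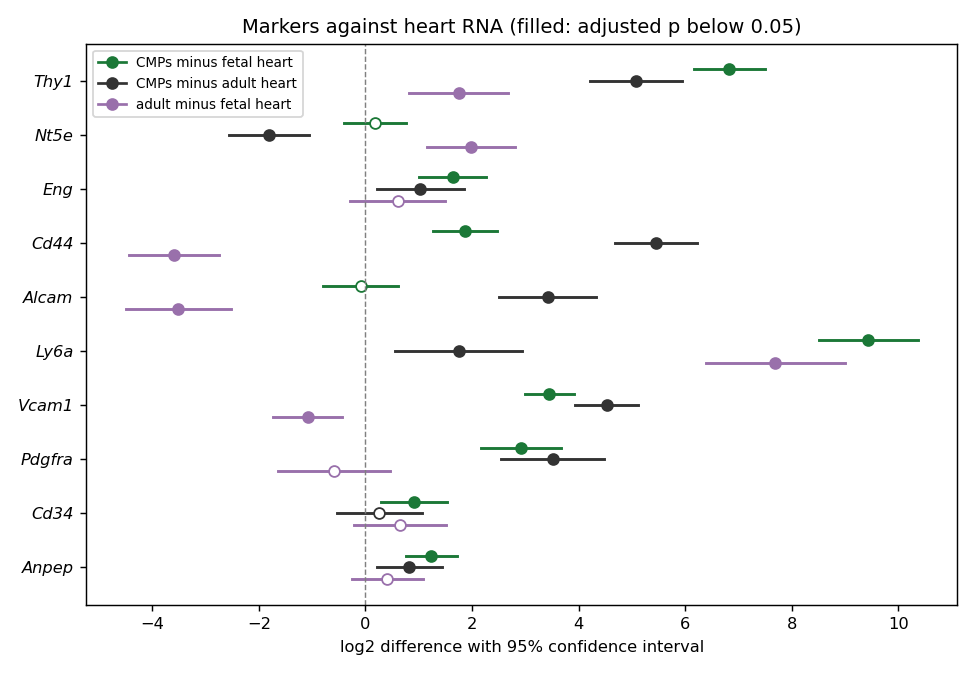
Differences of the 10 markers between CMPs and fetal heart, CMPs and adult heart, and adult and fetal heart, as log2 values with 95% confidence intervals from the fit of all 7 arrays; filled points have an adjusted p below 0.05. Thy1 and Ly6a lie farthest to the right against fetal heart (6.83 and 9.44), and Nt5e is the only marker below adult heart (-1.81).

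Of 26 further surface molecules of stromal cells, 15 were higher and 7 lower in the CMPs against fetal heart, and 12 higher and 4 lower against adult heart, with medians of 1.32 and 0.74. Pdpn, the podoplanin of fibroblasts and lymphatic vessels, was higher than in adult heart by 4.47 ± 0.25 (adjusted p = 0.00033). Prom1 (CD133) was at least 80.2-fold lower than in fetal heart (adjusted p = 0.00015). Of the 10 fibroblast markers, 9 were higher and none lower against fetal heart and 8 higher and none lower against adult heart, with medians of 1.73 and 2.78.

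Adult and fetal heart differed at 6 of the 10 markers, where 37% of 20946 genes were called, 18.8% higher and 18.2% lower in adult heart. The median of the 10 was 0.51 and that of all genes 0.09. Higher in adult heart were Ly6a, by 7.69 ± 0.52 or 207-fold (adjusted p = 0.000923; 5.85 with normexp correction), Nt5e, by 1.98 ± 0.33 or 3.95-fold (adjusted p = 0.00884), and Thy1, by 1.75 ± 0.37 or 3.36-fold (adjusted p = 0.0185). Lower were Cd44 by its probe at base 5494, as described, Alcam, by 3.51 ± 0.40 or 11.4-fold (adjusted p = 0.00307; -2.50 with normexp correction), and Vcam1, by 1.08 ± 0.26 or 2.11-fold (adjusted p = 0.0259). The Vcam1 call was lost with the mean of its probes (-0.48, adjusted p = 0.297) and the Thy1 call without the wild-type fetal heart (1.53, adjusted p = 0.0665). Eng, Pdgfra, Cd34 and Anpep had differences of 0.61 ± 0.36, -0.59 ± 0.42, 0.65 ± 0.35 and 0.41 ± 0.27 (adjusted p from 0.191 to 0.313). Without the Myh6-EGFP fetal heart, Eng (1.02, adjusted p = 0.0228) and Pdgfra (-1.10, adjusted p = 0.0195) passed the threshold.

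Among neighbours of these genes in adult against fetal heart, Ly6c1 was higher by 7.70 ± 0.47 (adjusted p = 0.000765) and Ncam1 lower by 3.79 ± 0.22 (adjusted p = 0.00065). Of the Ly6 family 7 of 15 genes were higher and 3 lower, of the endoglin pathway 1 higher and 4 lower of 16, and of the adenosine genes 3 higher and none lower of 13. With normexp correction the Ly6 counts were 6 and 1 and the adenosine counts 3 and 1.

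The study set out to compare CMPs from postmortem with those from living tissue. None of the 10 markers passed the threshold of limma in this comparison, in which 20 of 19011 genes (0.105%) did. Without adjustment 6 markers had a p under 0.05, as did 2099 genes, or 11% of those tested. All 10 differences had the same sign within either chamber, but the share of all genes for which this holds was not counted. Some of them were near 0: Thy1 at 0.09 in ventricular CMPs, and Eng (0.13 and 0.15) and Vcam1 (-0.09 and -0.06) in atrial and ventricular CMPs. The arrays of both sides did not overlap for 5 markers, Thy1, Nt5e, Cd44, Pdgfra and Cd34, where 23.9% of genes were without overlap and higher in postmortem CMPs and 20.2% lower. The median of the 10 was 0.38, against 0.01 over all genes.

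The wider differences were those of Nt5e, Alcam and Cd34. Nt5e was lower in the postmortem array by 2.29 in the atrial pair and by 2.82 in the ventricular one, which gave a difference of -2.55 ± 0.26 or 5.86-fold (interval -3.21 to -1.89, adjusted p = 0.0674; -1.95 with normexp correction). Alcam was higher by 2.93 and 1.74, a difference of 2.33 ± 0.32 or 5.04-fold (interval 1.52 to 3.14, adjusted p = 0.134). Within each chamber the postmortem array was the higher one for Alcam, yet the groups overlapped, because the postmortem ventricular array (0.84) lay under the living atrial one (1.04). Cd34 was higher by 1.03 and 1.93, a difference of 1.48 ± 0.28 or 2.79-fold (interval 0.77 to 2.19, adjusted p = 0.225). The probe of Cd34 at base 963 was at 1.61, 0.42, -0.33 and -2.02 in the same order, with a difference of 2.19 ± 0.26 (adjusted p = 0.0812 over all probes).

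The remaining 7 differences were smaller. Pdgfra was lower in postmortem CMPs by nearly the same amount in both chambers, 0.88 and 0.90, for a difference of -0.89 ± 0.34 or 1.85-fold (interval -1.75 to -0.03, adjusted p = 0.439). Cd44 differed by -0.60 ± 0.28 and Thy1 by 0.63 ± 0.31 (adjusted p = 0.514 and 0.539), the latter almost all from the atrial pair (1.16 against 0.09). Ly6a was 1.89 higher in the atrial pair and 0.28 in the ventricular one (1.09 ± 0.43, adjusted p = 0.446), and Anpep 1.03 and 0.47 higher (0.75 ± 0.22, adjusted p = 0.341). Eng and Vcam1 were the nearest to 0, at 0.14 ± 0.29 (interval -0.59 to 0.87) and -0.07 ± 0.21 (interval -0.60 to 0.46).

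The count of markers called differed between alternatives. Testing all genes without a filter on dim probes brought Nt5e past the threshold (adjusted p = 0.0267). Leaving out 1 CMP array leaves a single pair of arrays, with the spread taken from the fetal hearts alone, so both the difference and its error change. That error is drawn toward the trend over all genes and does not measure how far cultures vary. Only the differences of the markers then called are given. Without the postmortem atrial or the living atrial array these markers were Nt5e (-2.82), Alcam (1.74) and Cd34 (1.93). Without the postmortem ventricular or the living ventricular array they were Nt5e (-2.29), Alcam (2.93) and Ly6a (1.89). In the fit of the 4 CMP arrays alone none was called. Over all 19 alternatives the difference of Nt5e ranged from -2.82 to -1.95, and its adjusted p in limma was as high as 0.49.

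**Figure D4:**
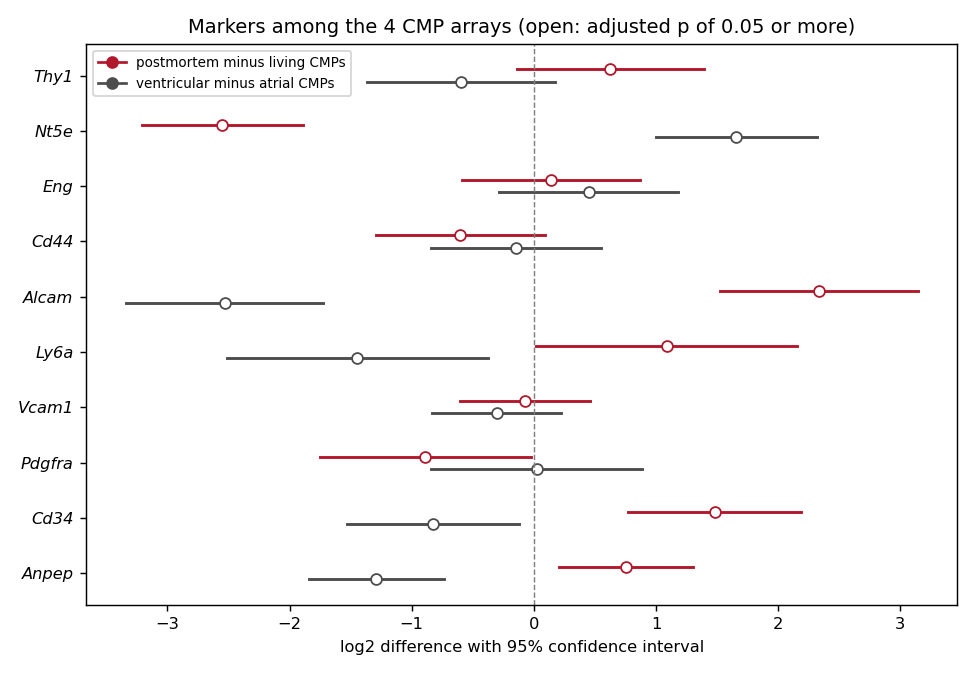
Differences of the 10 markers between postmortem and living CMPs and between ventricular and atrial CMPs, as log2 values with 95% confidence intervals from the fit of all 7 arrays; open points have an adjusted p of 0.05 or more, which holds for all of them. Nt5e and Alcam lie farthest from 0 in both comparisons and on opposite sides in each.

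No marker passed the threshold between ventricular and atrial CMPs, and neither did any of 18910 genes (0%). Without adjustment 5 markers had a p under 0.05 in limma, as did 1561 genes or 8.25%. Of the 10, 5 did not overlap between the chambers, Eng higher and Alcam, Ly6a, Vcam1 and Anpep lower in ventricular CMPs, where 21.5% of genes were without overlap and higher and 14.9% lower. The median of the 10 was -0.45, against 0.03 over all genes. Alcam was lower in ventricular CMPs by 3.13 among the postmortem and by 1.93 among the living arrays, a difference of -2.53 ± 0.32 or 5.78-fold (interval -3.34 to -1.72, adjusted p = 0.14). Nt5e was higher by 1.39 and 1.92, a difference of 1.66 ± 0.26 or 3.16-fold (interval 1.00 to 2.32, adjusted p = 0.186). Anpep was lower by 1.57 and 1.01 (-1.29 ± 0.22, adjusted p = 0.198) and Ly6a by 2.25 and 0.64 (-1.45 ± 0.43, adjusted p = 0.464).

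For the other markers the chamber differences were smaller. Cd34 differed by -0.83 ± 0.28 (adjusted p = 0.539), Thy1 by -0.60 ± 0.31 (adjusted p = 0.694), Eng by 0.45 ± 0.29 and Vcam1 by -0.30 ± 0.21. Cd44 (-0.15 ± 0.28) and Pdgfra (0.02 ± 0.34, interval -0.84 to 0.89) had no steady sign: Cd44 was at 0.58 with the mean of its probes and at 0.18 without either living array, and Pdgfra at -0.032 with quantile normalization. Leaving out a CMP array again changed the calls. Without either postmortem array Nt5e (1.92) and Alcam (-1.93) were called, again from a single pair of arrays. Without either living array Alcam (-3.13), Ly6a (-2.25) and Anpep (-1.57) were called.

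An interaction term asked whether the postmortem difference was the same in both chambers. In this fit the spread comes from the fetal pair alone, pooled over all genes of like signal. A gene's own gap between the fetal arrays had no weight in its error. None of the 10 markers was called, where 458 of 19011 genes (2.41%) were, and 1 marker had an unadjusted p under 0.05 in limma, against 7.02% of genes. That was Ly6a, whose postmortem difference was 1.6 ± 0.53 larger in the atrial than in the ventricular pair (adjusted p = 0.0864). Those of Alcam and Thy1 were 1.2 and 1.08 larger (adjusted p = 0.837 and 0.869).

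Lists of other cells were set beside these differences. The pericyte gene Rgs5 was at 3.25, -2.59, 1.59 and -5.54 in the CMPs, again in the order postmortem atrial and ventricular, then living atrial and ventricular. It was not well above background on the living ventricular array, and the fitted chamber difference, which rests on that signal, was not called (adjusted p = 0.0558). Cspg4 (NG2), also of pericytes, was at 2.95, 0.05, -0.61 and -1.67. Both have their highest value on the postmortem atrial and their lowest on the living ventricular array, as Thy1, Alcam, Ly6a, Cd34 and Anpep do. The whole list of 11 pericyte and smooth muscle genes did not follow them: 8, 8, 7 and 7 were well above background, and their summed level was 7.62, 8.63, 8.01 and 8.50. The part of these cells in the differences was not tested.

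Adenosine outside the cell is formed from ATP by ectonucleotidases, NT5E carrying out the last step, and is removed by deaminase, kinase and transporters or sensed by receptors. Neither Nt5e nor any of the 11 other tested genes of this list was called by limma between postmortem and living CMPs. Without adjustment 6 of the 11 had a p under 0.05 in limma, where 11% of all genes tested did. The median difference of the 11 was -1.29, above 0 for 4 and below 0 for 7. Alpl, a phosphatase that can also make adenosine from AMP, was at -0.18, 1.17, 3.89 and 3.38, lower by 4.06 in the atrial pair and 2.21 in the ventricular one (-3.14 ± 0.47, adjusted p = 0.163). The low-affinity receptor gene Adora2b was at -0.67, 1.54, 1.82 and 3.27, lower by 2.49 and 1.73 (-2.11 ± 0.39, adjusted p = 0.216). It has the order of Nt5e, lowest on the postmortem atrial and highest on the living ventricular array. Adora2a and Adora3 were also lower in both pairs, and Ada, the deaminase, was lower by 3.41 in the atrial pair but 0.33 in the ventricular one. Adk, the kinase that removes adenosine inside the cell, was higher by 1.21 and 0.67 (0.94 ± 0.27, adjusted p = 0.338).

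**Figure D5:**
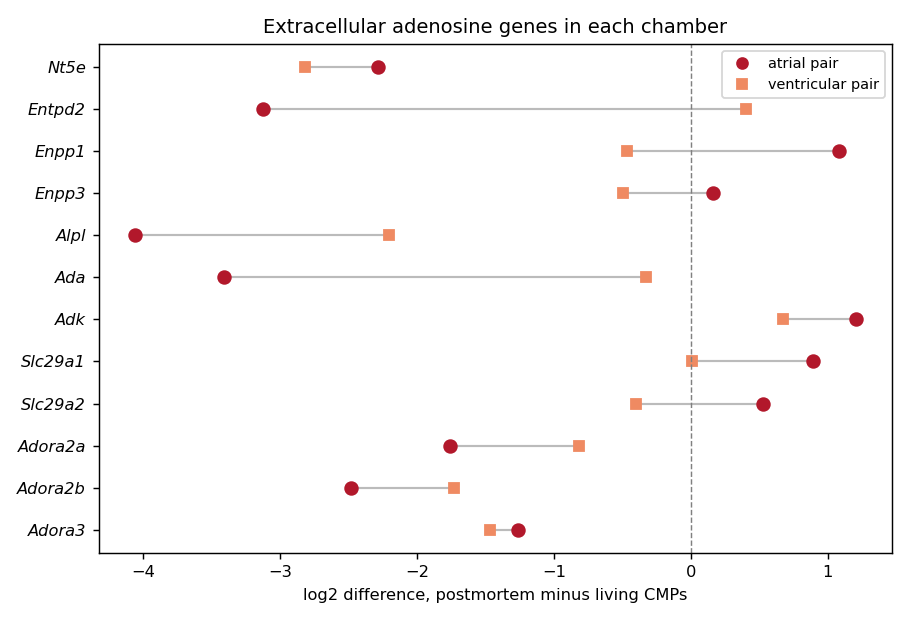
Difference between the postmortem and the living CMP array in the atrial pair (circles) and the ventricular pair (squares) for Nt5e and the 11 tested genes of extracellular adenosine, as log2 values; each point is the difference of 2 arrays and has no error of its own. Nt5e, Alpl, Ada, Adora2a, Adora2b and Adora3 lie below 0 in both pairs, and Adk lies above 0 in both.

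Against the hearts the adenosine list was divided. Of 13 genes 7 were higher and 5 lower than in fetal heart, and 3 higher and 6 lower than in adult heart. Adora2b was higher by 3.54 ± 0.34 and 3.54 ± 0.44 (adjusted p = 0.000953 and 0.00228). Entpd1 (CD39), the enzyme upstream of NT5E on endothelium and leukocytes, was called lower (adjusted p = 0.00132 and 0.00218). It was well above background on 1 of 4 CMP arrays, so its fitted differences of -3.31 and -3.76 rest in part on signals at background. The heart muscle receptor Adora1 was at least 17.2-fold and 20.6-fold lower (adjusted p = 0.00117 and 0.00246).

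Of all 108 tested genes of the pathway lists, limma called 0 between postmortem and living CMPs and 0 between the chambers. In each comparison 26 had an unadjusted p under 0.05 in limma, where 11% and 8.25% of all genes tested did. Ncam1, a neural and stromal adhesion molecule of the same superfamily as ALCAM, was at 0.53, 2.30, 1.96 and 3.99, the reverse of the order of Alcam in its highest and lowest arrays. Its difference was -1.56 ± 0.18 for postmortem against living CMPs (adjusted p = 0.0784) and 1.90 ± 0.18 for ventricular against atrial CMPs (adjusted p = 0.114). In the Ly6 family none of 14 genes was called by limma between postmortem and living CMPs. Of these, 3 had an unadjusted p under 0.05, where 11% of all genes did. The fitted difference was above 0 for 9 and below 0 for 5, with a median of 0.62. Ly6c1 differed by 1.04 ± 0.39 (adjusted p = 0.422), and by 1.87 in the atrial against 0.21 in the ventricular pair, values close to those of Ly6a. In ventricular CMPs Ly6d was lower by 4.41 ± 0.55 (adjusted p = 0.131). Other differences for postmortem CMPs were Plau, the urokinase that can activate PDGF-D, at 2.13 ± 0.32 (adjusted p = 0.163), Ace at 1.68 ± 0.38 (adjusted p = 0.259) and Sdc4 at -1.15 ± 0.22 (adjusted p = 0.234). Of the 23 tested stromal surface molecules none was called and 4 had an unadjusted p under 0.05 in limma, where 11% of all genes did. The differences of the 23 were above 0 for 11 and below 0 for 12, with a median of -0.01.

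The postmortem atrial array was the most distant of the CMPs in these markers. It was at least 2-fold from the postmortem ventricular array at 5 of the 10 markers, and from the living atrial and living ventricular arrays at 6 each, where 18.8%, 19% and 21.3% of 24885 genes were. Postmortem ventricular and living atrial CMPs, which share neither source nor chamber, differed 2-fold at no marker, where 10.9% of genes did. Their median absolute difference over the 10 was 0.56, against 0.38 between the ventricular arrays and 0.56 between the living ones. The postmortem ventricular and living ventricular arrays differed at 3 markers (10.5% of genes) and the living arrays from each other at 4 (9.65%). The fetal hearts differed 2-fold at 1 marker, Pdgfra. The postmortem atrial array had the highest CMP value of 5 markers (Thy1, Alcam, Ly6a, Cd34 and Anpep) and the lowest of 3 (Nt5e, Cd44 and Pdgfra). The living ventricular array had the highest of 2 (Nt5e and Pdgfra) and the lowest of the same 5 that the postmortem atrial array led. How often an array was highest or lowest over all genes was not counted. The postmortem atrial array was the most distant over all genes too. Over 21825 genes its median absolute gap from the median of the other CMP arrays was 0.34. That gap was 0.22 for the postmortem ventricular, 0.20 for the living atrial and 0.23 for the living ventricular array.

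For each marker the genes of most similar profile were sought among 13149 genes, by the root mean square difference over the 7 arrays after each gene was centred on its own mean. These are descriptions over 7 arrays of 3 kinds of RNA, and whether r comes from the split between CMPs and hearts or from the spread among the CMPs was not tested. Closest to Thy1 was Osmr (0.53, Pearson r 0.99), to Eng Slc12a4 (0.14, 0.99), to Cd44 Pak3 (0.28, 0.99) and to Vcam1 Gm13275 (0.17, 1.00). Pdgfra was closest to Runx1 (0.25, 0.99), Cd34 to Galntl4 (0.34, 0.91) and Anpep to Erlec1 (0.26, 0.97). Nt5e was closest to H2-Q8 (0.54, 0.92), and Ly6a to Xdh (0.56, 0.99) and then Ly6c1 (0.67, 0.99). Alcam was closest to Pax1 (0.53, 0.98) and then to Eln, the elastin gene (0.55, 0.97), which was at 4.27, 0.54, 0.33 and -2.21 in the CMPs, -1.90 in adult heart and 1.34 and 1.38 in the fetal hearts.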

How the data were processed

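The authors deposited a scanner table per array with linear intensity columns (raw mean signal, median local background, processed signal). Per the file headers these were made with Agilent Feature Extraction 10.7.3.1, and per the submitters' processing notes with 9.5.3. The processed signal was already background-subtracted and detrended, per the file headers. The authors also deposited log2 values, which differed from log2 of the processed signal by 1 constant per array (100% of probes within 0.001). An array had 59305 spots for 55681 probes, averaged per probe. Saturation was absent, and 11 probes with outlier flags were dropped. The number of arrays limits the precision.

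Here the 75th percentile of each array was subtracted from its log2 processed signal. One limma fit (version 3.58.1, R 4.3.3, eBayes with a trend) had a mean for each CMP source state, for adult and for fetal heart, plus a chamber term within the CMPs, and 2 residual degrees of freedom, or 1 with the interaction. Tests were two-sided. Genes entered a test if all arrays of 1 side or the other showed their probe well above background. For a group never above background, "at least N-fold" sets the brighter mean against the dim signal or the lowest detected one, whichever is higher. A list's summed level adds its genes' linear signals before log2. All arrays came from 1 slide and 1 scan, the CMPs in one row and the hearts in the other. Names are the array's, and 20190 of 34792 matched the RefSeq table (GRCm38.p6, names only). The scripts were tested on simulated data. Members and lists were chosen with earlier results of these data known. Named are all 10 markers, their direct partners, up to 4 tested genes of largest difference per list, and the 2 most similar profiles per marker. The alternatives tried were other scaling, background correction, filters, probe choices, priors, model terms and left-out arrays.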

Additional observations from a re-analysis of the deposited data

How the results depend on the processing

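Of the differences of the 10 markers under all alternatives, 915 kept their direction and their side of the threshold, 26 passed it only in the alternative, 27 passed it only in the reported setting and 12 changed sign. Many alternatives could change only the p-value of a difference. Those of filter, prior and chamber term left the difference as it was. So did testing every probe and leaving out an array outside the comparison. The 915 therefore say little about how steady the directions are. The number of genes called between postmortem and living CMPs, 20 as reported, was 47 with normexp background correction, 53 without a filter, 0 without a trend in the prior, 2 without the chamber term, 0 with the CMP arrays alone and 0 to 1766 when 1 array was left out. The markers called were 1 without a filter and 0 to 3 when 1 array was left out. Between the chambers the genes called, 0 as reported, were 5 with normexp, 25 without a filter, 2 with every probe and 0 to 1802 when 1 array was left out, and the markers called 0 to 3. Against adult heart 4 markers in place of 9 were called without the chamber term (Thy1, Cd44, Vcam1 and Pdgfra). The interaction, with 458 genes called, gave 0 with quantile normalization, 237 with scaling by the median of detected probes and 110 without a trend. Other counts of markers were 6 to 8 against fetal heart, 6 to 9 against adult heart and 5 to 8 between the hearts.

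The sign changed for Vcam1 between postmortem and living CMPs with the mean of probes (0.082), for Pdgfra between chambers with quantile normalization (-0.032), and for Cd44 between chambers with the mean of probes (0.58) and when 1 array was left out (-0.47 to 0.18, positive without either living array). For Alcam against fetal heart it changed with normexp (0.026) and when 1 array was left out (-0.38 to 0.21, positive without the postmortem ventricular or living atrial one). In the interaction it changed for Pdgfra with quantile normalization (-0.12), the median of detected probes (-0.039) and normexp (-0.041), and for Vcam1 with the mean of probes (0.63). The mean of probes takes in every probe of a gene. For Cd44 it includes those at bases 1777 and 1965, near or below background. These were at -3.81 and -4.51 in ventricular and -4.91 and -5.69 in atrial CMPs. The cause was not tested for any of the sign changes, and none of the changed values passed the threshold. Scaling by the median of detected probes moved the median of all genes to -0.18 against fetal and -0.23 against adult heart, and to 0.15 between the hearts.

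No paired analysis was possible because the labels carry no replicate numbers, beyond the chamber term of the reported fit, which sets postmortem against living CMPs within each chamber. Leaving out the adult heart array could not be fitted for the comparisons that use it. With 1 CMP array left out, a source is 1 array that is assumed to vary like the fetal hearts. The calls made then rest on that pair, with an error that limma draws toward the trend over all genes. Each source is 1 array, and no alternative addresses how far repeated cultures would differ.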

Other observations

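Markers of cells other than stromal cells were divided between the CMPs and the hearts. Of 10 leukocyte markers, 2 were higher and 6 lower in the CMPs than in fetal heart, and none was higher and 9 were lower than in adult heart. Their summed level was 5.99, 5.59, 6.13 and 6.17 in the CMPs, in the order used throughout. It was 7.07 in adult heart and 5.21 and 5.39 in the fetal hearts, so by this measure every CMP array lay above both fetal hearts. Of 9 mesothelial markers, the lining cells of the heart surface, none was higher and 8 were lower than in fetal heart, and 1 of 8 was higher (Tbx18, by 2.10 ± 0.43, limma adjusted p = 0.0116, named after its value was seen) and 6 were lower than in adult heart. The class II gene H2-Ab1, expressed by antigen-presenting cells, was at -3.78, -2.39 and -2.41 on the postmortem atrial, postmortem ventricular and living atrial arrays and at 1.71 on the living ventricular one, with 5.10 in adult heart.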
